A study of Mus musculus with 4 samples.

Results

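The serum amyloid genes measured here were Saa1, Saa2, Saa3 and Saa4, which encode the serum amyloid A (SAA) proteins, and Apcs, which encodes serum amyloid P. They were taken by symbol, as 5 of the 22849 gene symbols in a table of liver RNA, and each had a single row. The symbols were selected on the measured difference in FPKM between the vehicle and UAB126 libraries, which is the comparison below, so their differences between the groups are given as a description and without a test. The mice were males of the inbred strain C57BL/6. All mice ate a diet with 60% fat for 12 weeks. For the vehicle group it held no UAB126, and for the UAB126 group it held 1.2 g of UAB126 per kg. UAB126 is a compound named only by this code, and nothing in the sources used here says what it is. Each group had 2 libraries (vehicle 1 and 2, UAB126 1 and 2). The titles only number them, and whether each is a separate animal is not said, so the spread within a group may be technical. No age, batch or collection time was given.

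SAA proteins are small apolipoproteins that liver cells secrete onto high-density lipoprotein. In mice, Saa1 and Saa2 are the classical acute phase genes of the liver. Interleukin-6, interleukin-1 and tumour necrosis factor raise their transcription steeply through STAT3, NF-kB and C/EBP factors. SAA protein can deposit as amyloid when it stays high. Saa3 is induced by inflammation in macrophages and fat tissue as well as in liver, and Saa4 is made constitutively. Serum amyloid P is a pentraxin, a ring-shaped plasma protein that binds amyloid fibrils and cell debris, and in mice it is itself an acute phase protein.

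The 4 SAA genes lie together on chromosome 7 of mm10: Saa3 at 46711998 to 46715700, Saa4 at 46727998 to 46732603, Saa1 at 46740497 to 46742980, all on the minus strand, and Saa2 at 46751790 to 46754313 on the plus strand. Apcs lies on chromosome 1 at 172893961 to 172895041, minus strand. Saa1 and Saa2 carry very similar coding sequences, identical at 348 of 366 bases (95.1%). Saa3 matched Saa1 in 75.9% of aligned columns and Saa4 matched it in 65.0%. How well reads can tell Saa1 from Saa2 matters for the values of this pair below. The stretch of the coding sequence where the pair differs most is therefore shown. It covers coding bases 75 to 149, with the 10 differing bases in capitals.
Saa1: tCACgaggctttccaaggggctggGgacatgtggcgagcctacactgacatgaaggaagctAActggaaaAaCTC
Saa2: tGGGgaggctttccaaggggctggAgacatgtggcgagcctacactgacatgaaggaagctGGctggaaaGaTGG
Of the 535 words of 75 bases (the read length) in the main Saa1 transcript, 25 (4.7%) also occurred in a Saa2 transcript, and the same held for 25 of the 532 words of Saa2. Those of Saa3, Saa4 and Apcs occurred in no other gene of the annotation. Most full-length reads of Saa1 and Saa2 therefore held at least 1 base that separates them, although the settings used for reads that matched both are not given.

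The promoters of Saa1 and Saa2 were also nearly alike, identical in 95.3% of aligned columns over the 300 bases from 250 before to 50 after the start of the gene. Other pairs of the 5 promoters matched in 44.3% to 50.9% of columns. They are shown because Saa1 and Saa2 were both lower with UAB126 and Apcs was higher. The sequences are from RefSeq, build GRCm38.p6, 5′ to 3′ on the strand of the gene: Saa1 at chr7:46742931-46743230 (minus strand), Saa2 at chr7:46751583-46751882 (plus strand) and Apcs at chr1:172895005-172895304 (minus strand). Capitals mark matches to the motifs searched.
Saa1: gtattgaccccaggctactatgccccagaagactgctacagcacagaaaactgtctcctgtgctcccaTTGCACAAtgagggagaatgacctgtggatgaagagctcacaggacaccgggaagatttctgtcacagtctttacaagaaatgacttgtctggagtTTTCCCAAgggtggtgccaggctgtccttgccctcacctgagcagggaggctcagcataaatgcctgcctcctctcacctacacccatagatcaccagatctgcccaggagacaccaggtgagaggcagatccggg
Saa2: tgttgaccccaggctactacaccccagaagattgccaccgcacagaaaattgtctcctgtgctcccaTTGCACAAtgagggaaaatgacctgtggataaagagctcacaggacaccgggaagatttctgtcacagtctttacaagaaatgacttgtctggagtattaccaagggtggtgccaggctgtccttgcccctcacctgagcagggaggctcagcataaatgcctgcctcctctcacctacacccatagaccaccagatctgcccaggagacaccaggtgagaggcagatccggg
Apcs: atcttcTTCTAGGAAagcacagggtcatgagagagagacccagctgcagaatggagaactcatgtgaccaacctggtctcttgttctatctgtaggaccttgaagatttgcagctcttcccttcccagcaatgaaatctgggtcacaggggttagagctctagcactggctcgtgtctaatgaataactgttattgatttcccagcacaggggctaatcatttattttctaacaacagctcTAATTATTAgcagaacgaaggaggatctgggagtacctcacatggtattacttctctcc
Both strands were searched for TTNNGNAA (C/EBP), TTCNNNGAA (STAT3), TAATNATTA (the inner core of the HNF1 site, chosen with the Apcs promoter in view) and the NF-kB site. Saa1 and Saa2 shared a C/EBP match that begins 182 and 183 bases before the start, and Saa1 had a further one at 86 bases, where Saa2 differs. Saa3 had 4 C/EBP matches, Saa4 had 2 and Apcs had none. Such a match occurred in 40.7% of 32544 promoters. The Apcs promoter held the only HNF1 core among the 5, beginning 9 bases before the start, a match found in 0.6% of promoters, and the only STAT3 match, at 244 bases, found in 8.3%. No full match to the NF-kB pattern searched (found in 8.5% of promoters) occurred in these windows. Looser forms of the NF-kB site were not searched. The motifs did not overlap each other. A match is a run of letters and not a shown binding site.

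Before the values, the libraries need a description. Between 10494 and 10772 symbols reached 1 FPKM (fragments per kilobase of transcript, scaled to the number of mapped fragments) in each library, and 10786 symbols averaging 1 FPKM or more were tested. The number of fragments behind a value is unknown. The correlation of log2 values across symbols was 0.953 between the vehicle libraries, 0.959 between the UAB126 libraries and 0.914 to 0.955 between groups. Of the hepatocyte markers, Ttr was at 19625 to 44092 FPKM in every library, while Alb was listed at 0 in all libraries but vehicle 2. Heart muscle genes were present at unequal levels, in a list of 18 written after these genes were seen beside Saa3. The 17 with a row of their own summed to 654.7 and 3428 FPKM in libraries vehicle 1 and 2, and to 38.9 and 206.3 FPKM in UAB126 1 and 2. All 17 were highest in vehicle 2. In 16 both UAB126 libraries lay below both vehicle libraries, against 26.9% of all tested symbols. Nothing is read from these counts, since the list followed from genes seen in these data. Skeletal muscle genes (10) summed to 2.22 to 24.2 FPKM.

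Livers of mice given UAB126 held far less Saa1 and Saa2 RNA than those on the same diet without it, somewhat less Saa4, and about 4 times more Apcs. Saa3 was lower too, but its size rested on 1 vehicle library. In all 4 SAA genes both UAB126 libraries lay below both vehicle libraries, as for 26.9% of all tested symbols, and in Apcs both lay above, as for 22.7%. At an adjusted p under 0.05 (limma), 0.139% of all tested symbols passed, 0.0464% higher and 0.0927% lower. At an unadjusted p under 0.05 the share was 13.4%, 5.03% higher and 8.38% lower. Nothing is read from these shares for the 5 genes, since this contrast selected them. All 5 passed the filter on low values. In bulk tissue, fewer cells of a type and less RNA per cell cannot be told apart.

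**Figure D1:**
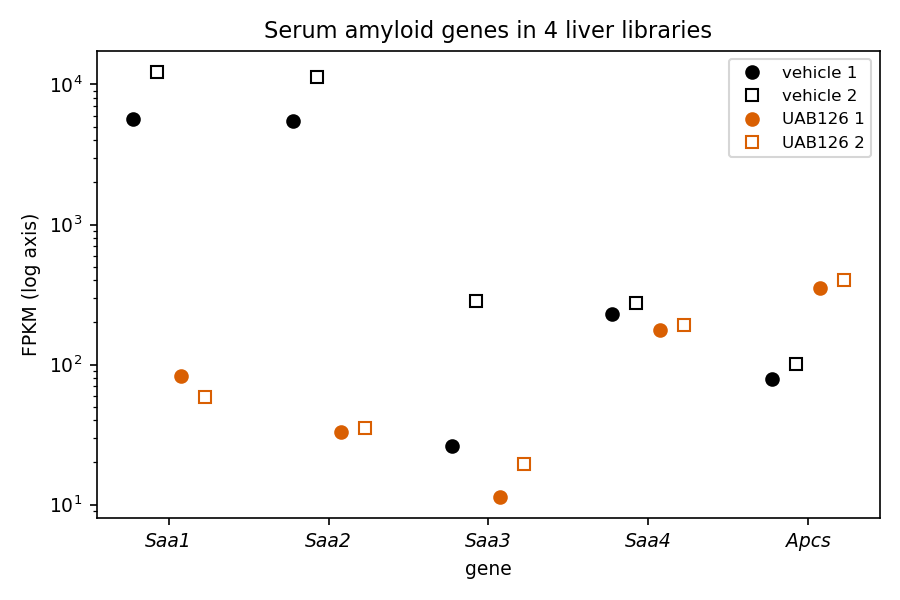
FPKM of each serum amyloid gene on a log axis, 1 point per library (black for vehicle and orange for UAB126, with replicate 1 as a filled circle and replicate 2 as an open square). Saa1 and Saa2 lie at 5449 FPKM or more in vehicle and at 83.2 FPKM or less with UAB126, the Saa4 points lie close together, and the Apcs points are higher with UAB126.

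Saa1 was at 5667 FPKM in vehicle 1 and 12285 FPKM in vehicle 2, and at 83.2 and 59.0 FPKM in UAB126 1 and 2. The groups were far apart, with the lower vehicle library 68.1 times the higher UAB126 library. The ratio of group means was 126, and the log2 difference was -6.88 ± 0.45. Here and below a difference is UAB126 minus vehicle on the log2(FPKM + 1) scale, and ± is limma's moderated standard error (n = 2 per group), which borrows from the spread of other genes. By level, Saa1 stood at rank 44 and 35 of the 10786 symbols in the vehicle libraries and at rank 1001 and 1536 with UAB126.

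Saa2 was at 5449 and 11222 FPKM in libraries vehicle 1 and 2, and at 32.7 and 35.1 FPKM in UAB126 1 and 2. The gap was wider than for Saa1, with 155 times more in the lower vehicle library than in the higher UAB126 library. The ratio of means was 246 and the log2 difference was -7.81 ± 0.40. In both genes vehicle 2 held more than vehicle 1, by 2.17 times in Saa1 and 2.06 times in Saa2.

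The ratio within the pair also differed between the groups. Saa1 stood at 1.04 and 1.09 times the level of Saa2 in vehicle 1 and 2, and at 2.54 and 1.68 times in UAB126 1 and 2. The ratio was thus higher in both UAB126 libraries. The part of reads that match both genes was not tested.

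Saa4, the constitutive member, was at 228.0 and 275.1 FPKM in libraries vehicle 1 and 2, and at 177.2 and 192.3 FPKM in UAB126 1 and 2. The groups did not overlap, but the lowest vehicle value exceeded the highest UAB126 value only 1.19 times. The ratio of means was 1.36 and the log2 difference -0.44 ± 0.23. It shrank to -0.07 with quantile normalization. Its rank stayed between 508 and 593 in all 4 libraries.

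Saa3, the member also made by macrophages and fat cells, was at 26.4 FPKM in vehicle 1 and 285.4 FPKM in vehicle 2, and at 11.4 and 19.5 FPKM in UAB126 1 and 2. Vehicle 2 stood alone, while vehicle 1 was 1.35 times the higher UAB126 library. The log2 difference was -2.47 ± 1.07. It was -0.78 without vehicle 2 and -4.17 without vehicle 1. The vehicle libraries differed 10.8 times in Saa3, and of the 10786 tested symbols 40 (0.371%) differed between them by as much or more in either direction, on the FPKM + 1 scale.

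Some markers of other cells were also highest in vehicle 2. The neutrophil genes S100a8 and S100a9 were at 24.7 and 6.81 FPKM there and at no more than 1.09 and 1.65 FPKM in the other libraries, and the 7 matched genes of the 8 in the neutrophil list summed to 1.59, 32.9, 3.34 and 3.85 FPKM in vehicle 1, vehicle 2, UAB126 1 and UAB126 2. Of these 7 genes 3 were highest in vehicle 2, and S100a8 and S100a9 made up nearly all of its sum. Elane was lower there (0.286 FPKM) than in vehicle 1 (1.00 FPKM), and Mpo, Retnlg and Cxcr2 were listed at 0. The heart muscle sum was 5.24 times higher in vehicle 2 than in vehicle 1, against 10.8 times for Saa3, and 5.31 times higher in UAB126 2 than in UAB126 1, against 1.72 times for Saa3. Kupffer cell and macrophage genes (9 matched of 10) summed to 82.0 and 232.5 FPKM in vehicle 1 and 2. In UAB126 1 and 2 they summed to 193.7 and 231.8 FPKM, so the UAB126 libraries were close to vehicle 2 where Saa3 was not. Of these 9 genes 2, Clec4f and Vsig4, were highest in vehicle 2. Of the fat cell list (5 matched of 6, summing to 7.27 to 219.9 FPKM), most was Cfd, and Adipoq was at 2.09 to 4.47 FPKM. The part of heart muscle, neutrophil and other cells in the Saa3 values was not tested.

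**Figure D2:**
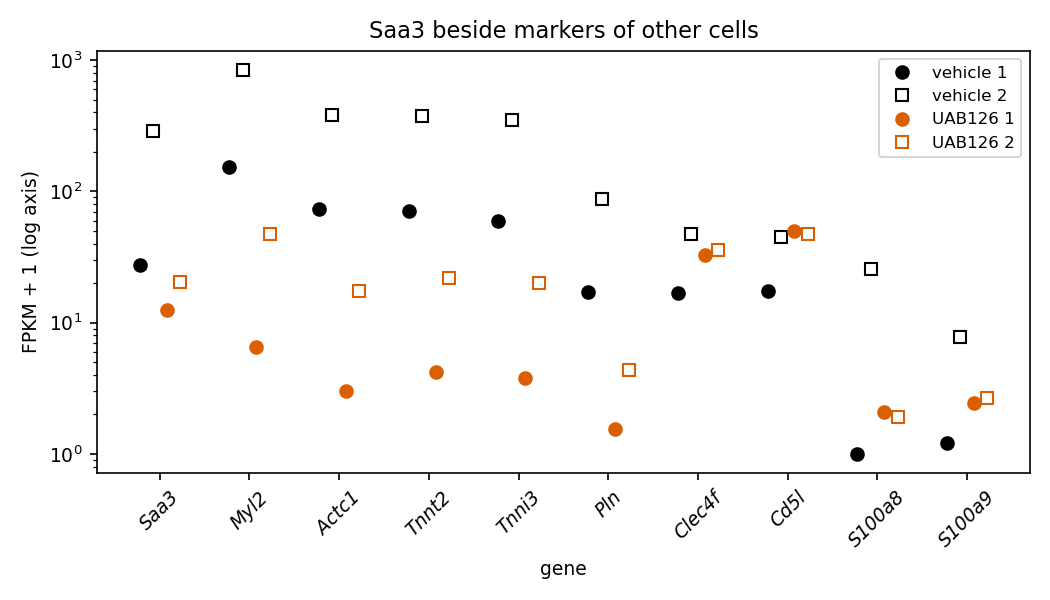
FPKM + 1 on a log axis of Saa3, 5 heart muscle genes (Myl2, Actc1, Tnnt2, Tnni3, Pln), 2 Kupffer cell genes (Clec4f, Cd5l) and 2 neutrophil genes (S100a8, S100a9), with symbols as for the plot of the serum amyloid genes. Vehicle 2 is the highest library in Saa3, the heart genes, the neutrophil genes and Clec4f, as with 285.4 FPKM of Saa3 and 379.7 FPKM of Actc1. Cd5l is highest in UAB126 1.

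The remaining marker lists hold other liver cells and gut. Endothelial genes (5 of 6) summed to 56.2 to 106.2 FPKM, stellate cell genes (5 of 6) to 129.4 to 164.3 FPKM and bile duct genes (4 of 4) to 6.08 to 9.08 FPKM. The hepatocyte list (7 of 8) summed to 60165 and 117651 FPKM in libraries vehicle 1 and 2. With UAB126 it summed to 32713 and 48217 FPKM, and only the vehicle 2 sum holds a value of Alb. Both UAB126 libraries lay below both vehicle libraries in 4 of the 7 genes and above in 1, against 26.9% and 22.7% of all tested symbols. The gene above was Tat, at 392.6 and 513.0 FPKM in vehicle 1 and 2. It was at 1118 and 1431 FPKM in UAB126 1 and 2. In the intestinal list (4 of 4), nearly all of the sum of 55.8 to 268.9 FPKM was Fabp2, which liver also makes, and Lct was listed at 0 in every library. Their part in the serum amyloid values was not tested.

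Apcs, serum amyloid P, differed in the direction opposite to the SAA genes. It was at 78.8 and 100.5 FPKM in libraries vehicle 1 and 2, and at 352.1 and 398.7 FPKM in UAB126 1 and 2. Both UAB126 libraries stood above both vehicle libraries, by 3.50 times at the nearest pair. The ratio of means was 4.19 and the log2 difference 2.06 ± 0.24. It was 2.49 after the trend with transcript length was removed and 2.39 with quantile normalization. Its rank by level went from 1229 and 1143 to 273 and 321. Crp, the other short pentraxin of liver, which lies near Apcs on chromosome 1, was at 219.6 and 234.0 FPKM against 276.6 and 302.6 FPKM. Apcs was 0.359 and 0.430 times Crp in the vehicle libraries and 1.27 and 1.32 times with UAB126, so the order of the pair was opposite in the groups.

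FPKM is per length, so the levels of the 5 genes can be set in order. The annotation was not given, so the lengths used are unknown, and the order and the shares below depend on them. With UAB126 the order in both libraries was Apcs, Saa4, Saa1, Saa2, Saa3, with no overlap between neighbours. In vehicle, Saa1 and Saa2 came first in both libraries and did not differ beyond their spread. In vehicle 1 Saa4, Apcs and Saa3 followed, and in vehicle 2 Saa3, Saa4 and Apcs. The range of Saa3 over the vehicle libraries covered those of both Saa4 and Apcs, while Saa4 lay above Apcs in each.

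The make-up of SAA RNA differed as well. Summed over the 4 SAA genes, the level was 11370 and 24067 FPKM in libraries vehicle 1 and 2, and 304.6 and 305.9 FPKM in UAB126 1 and 2. Saa1 and Saa2 together made up 97.8% and 97.7% of the sum in the vehicle libraries and 38.1% and 30.8% in the UAB126 libraries. The constitutive Saa4 went from 2.01% and 1.14% to 58.2% and 62.9%, and was the largest single share in both UAB126 libraries. Saa3 made up 0.232% and 1.19% in vehicle and 3.74% and 6.39% with UAB126. SAA RNA exceeded Apcs RNA 144 and 239 times in vehicle and was 0.865 and 0.767 times Apcs with UAB126.

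**Figure D3:**
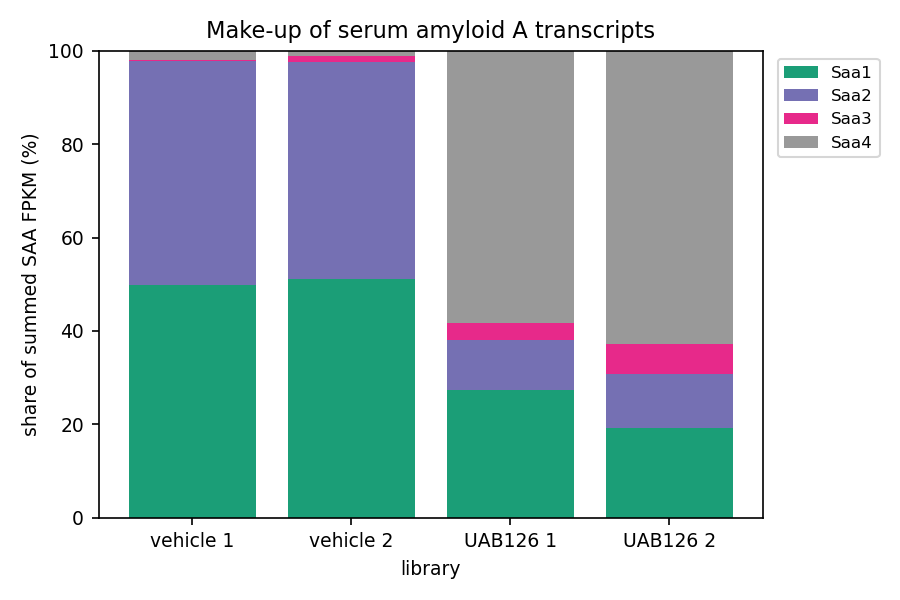
Share of each SAA gene in the summed FPKM of the 4 SAA genes (percent, stacked bars, 1 bar per library). Saa1 and Saa2 fill 97.8% and 97.7% of the vehicle bars, and Saa4 fills 58.2% and 62.9% of the UAB126 bars.

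The neighbours of the SAA cluster on chromosome 7 were given by the same table. Hps5, Gtf2h1 and Saal1 differed by 0.00 ± 0.20, 0.26 ± 0.17 and 0.06 ± 0.23 on the log2 scale. Ldha, lactate dehydrogenase A, was at 702.1 and 720.7 FPKM in the vehicle livers, against 376.9 and 470.3 FPKM in the UAB126 livers (limma adjusted p = 0.325). Tph1 and Mrgprx1 were listed at 0 in every library. No tested neighbour passed the threshold (limma), and Ldha alone among the 4 had an unadjusted p under 0.05, against 0.139% and 13.4% of all tested symbols.

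The genes with the most similar pattern were found by the root mean square distance between log2(FPKM + 1) values over the 4 libraries, each gene centred on its mean. Saa1 and Saa2 were nearest to each other (0.511). After that came, for both, Snora28 and Mir692-1, small RNA genes listed at 0 in the UAB126 libraries, and the pseudogene Serpina4-ps1, at 208.2 and 91.1 FPKM against 7.56 and 1.64 FPKM. The list went on with Moxd1 and 1500017E21Rik for Saa1, and with the joint row of Myh6 and Myh7 and with Actc1, heart muscle genes, for Saa2. Nearest to Saa3 were Acta1, Hrc, Ano2, Adprhl1 and Pkdrej (0.310 to 0.333), of which Acta1, Hrc and Adprhl1 are muscle genes. Nearest to Saa4 were Mob4, Spcs1, Slc39a1, Psmc3 and Psmd12 (0.012 to 0.019), all with small differences. Nearest to Apcs were Zbtb16, the joint row of Gm2083 and Mup19, Arhgef2, Sqle and Mir3098 (0.141 to 0.231). With 4 libraries, such likeness is a description only.

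The next lists hold genes upstream of the serum amyloid genes. Of the inducing cytokines and their receptors, 10 of 17 were tested and none passed (limma, adjusted p under 0.05), as did 0.139% of all tested symbols. At an unadjusted p under 0.05 there were 3 higher and 1 lower, against 5.03% and 8.38% of all tested symbols. The median log2 difference was -0.05, against -0.03 over all tested symbols, and ran from -0.14 to 0.03 over the alternatives. Il6 was listed at 0 in every library. Il1b, an inducer of Saa1 and Saa2 made by macrophages, was at 1.28 and 4.29 FPKM in the vehicle livers, against 1.14 and 0.577 FPKM in the UAB126 livers. Il1a, the other interleukin-1 gene of the list, lay the other way, at 1.59 and 0.927 FPKM against 2.88 and 2.13 FPKM, and neither passed. The interleukin-1 receptor gene Il1r1 was at 8.49 and 10.9 FPKM against 17.7 and 28.1 FPKM (limma adjusted p = 0.257). Il6st, the shared signalling chain of the interleukin-6 family, was at 17.9 and 14.8 FPKM against 28.7 and 21.4 FPKM (adjusted p = 0.370, limma). Il22ra1 was at 0.951 and 0.804 against 2.00 and 2.51 FPKM, and Lifr at 60.5 and 74.5 against 49.5 and 40.0 FPKM.

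The signal proteins and transcription factors also had no gene past the threshold among 22 tested of 24 (limma), and 1 at an unadjusted p under 0.05, against 0.139% and 13.4% of all tested symbols. This was Jak1, a kinase of the interleukin-6 pathway, at 18.6 and 18.5 FPKM in the vehicle livers, against 29.3 and 25.4 FPKM in the UAB126 livers. Stat3, which carries the interleukin-6 signal to the nucleus, was at 19.5 and 21.9 FPKM against 22.2 and 18.6 FPKM. Socs3, its target and feedback inhibitor, was at 5.67 and 1.87 FPKM against 2.06 and 1.92 FPKM, high in vehicle 1 alone. Cebpb and Cebpd, factors that bind SAA promoters, were at 135.3 and 210.4 against 140.2 and 297.1 FPKM and at 3.97 and 8.73 against 4.46 and 11.3 FPKM, with overlapping groups. Cebpa differed by -0.49 ± 0.21, Hnf4a by 0.46 ± 0.21 and Nfkb2 by 0.37 ± 0.18. The median of the list was 0.09.

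Of the SAA receptors and carriers, 7 of 15 were tested and none passed or had an unadjusted p under 0.05 (limma), against 0.139% and 13.4% of all tested symbols. Apoa1, the main protein of high-density lipoprotein that SAA displaces, was at 22351 and 35885 FPKM in the vehicle livers, against 9453 and 17724 FPKM in the UAB126 livers (limma adjusted p = 0.401). Apoe and Pltp had log2 differences of -0.66 ± 0.45 and -0.23 ± 0.20, the first turning to 0.08 with quantile normalization, and Lipc had one of -0.47 ± 0.23. The list's median of -0.23 turned to 0.08 with quantile normalization. Fpr2 and Tlr2, receptors for SAA on myeloid cells, were at 0 to 0.844 FPKM and 0.310 to 1.34 FPKM and were not tested.

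Among pentraxins and the partners of serum amyloid P, 9 of 13 were tested and none passed (limma), with 1 at an unadjusted p under 0.05, against 0.139% and 13.4% of all tested symbols. This was Fcgr2b, an inhibitory antibody receptor of liver endothelium, at 15.4 and 23.0 FPKM in the vehicle livers, against 31.4 and 31.2 FPKM in the UAB126 livers. Fcgr3, an activating receptor, was at 3.65 and 5.33 FPKM against 5.09 and 7.06 FPKM, and the complement inhibitor gene C4bp at 304.1 and 284.8 against 231.8 and 267.2 FPKM, a difference whose direction turned with quantile normalization. The median of the list, 0.35, was -0.27 without vehicle 1 and 0.80 without vehicle 2.

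Other acute phase genes, which share inducers with Saa1 and Saa2, are the list nearest to them in role. Of 25 genes, 18 were tested and 6 sat in rows shared with other genes. These 6 were Orm1, Orm2, Hp, Hpx, Mt1 and Mt2, and they do not enter the counts or the median below. None passed at an adjusted p under 0.05 (limma), and 9 had an unadjusted p under 0.05, all lower, against 8.38% of all tested symbols. Both UAB126 libraries lay below both vehicle libraries in 14 of the 18 and above in none, against 26.9% and 22.7% of all tested symbols. This list, like the others, was chosen with earlier results of these data known, so nothing is read from these shares. The median log2 difference was -0.95 and shrank to -0.35 with quantile normalization. Lcn2, lipocalin 2, an iron-binding defence protein, was at 110.5 and 207.7 FPKM in the vehicle livers, against 12.5 and 11.2 FPKM in the UAB126 livers, a difference of -3.57 ± 0.33 (limma adjusted p = 0.0531). Lcn2 passed in 8 of the 14 alternatives, with adjusted p from 0.00112 to 0.533 (limma). Orm3, of the orosomucoid family, was at 10.3 and 28.0 FPKM against 1.72 and 1.18 FPKM, and Lrg1, a secreted leucine-rich glycoprotein, at 935.5 and 1152 against 285.0 and 326.8 FPKM. Steap4, a metalloreductase, was at 73.3 and 74.3 FPKM against 32.6 and 31.7 FPKM (limma adjusted p = 0.141). Orm3 passed in 2 of the 14, without vehicle 1 and without vehicle 2, with adjusted p from 0.00102 to 0.733 over all of them (limma). The differences of Saa1 and Saa2 are larger in size than that of any of the 18, while that of Saa4 is smaller than the list's median. Since this contrast selected the serum amyloid genes, that comparison is a description only.

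The negative acute phase genes are those that liver lowers in inflammation. None of 8 tested of 9 passed or had an unadjusted p under 0.05 (limma), against 0.139% and 13.4% of all tested symbols. Both UAB126 libraries were lower in 4 and higher in none, against 26.9% and 22.7%. The median was -0.50 and turned to 0.21 with quantile normalization. Ttr, transthyretin, was at 34335 and 44092 FPKM in the vehicle livers, against 19625 and 25328 FPKM in the UAB126 livers, and Apoh at 2586 and 2854 against 1616 and 2105 FPKM. The directions of both turned with quantile normalization. Alb cannot be compared, since it is listed at 0 in 3 of the 4 libraries, but it is among the 8 tested genes and enters the median.

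**Figure D4:**
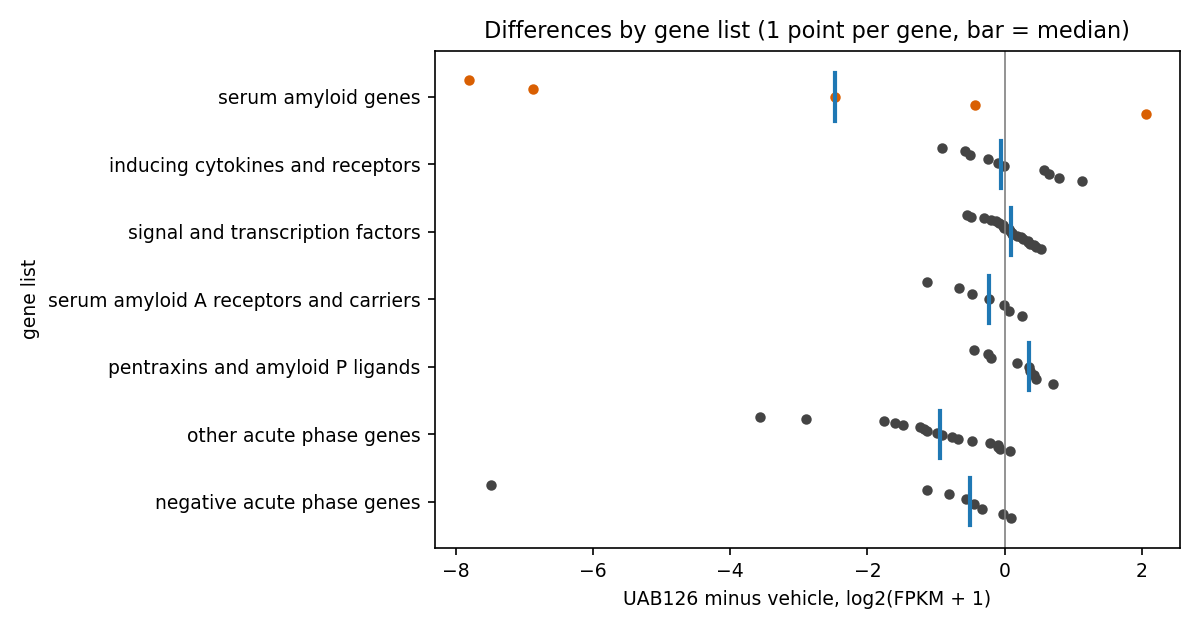
Log2 difference (UAB126 minus vehicle, log2(FPKM + 1) scale) of each tested gene, by list, with a bar at the median. Saa1 and Saa2 lie at -6.88 and -7.81, the other acute phase genes have a median of -0.95, and the point near -7.49 among the negative acute phase genes is Alb, listed at 0 in all but vehicle 2.

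The differences of the 5 genes kept their direction under all 14 alternatives, as drawn in the plot of settings. Saa1 ran from -7.43 to -6.32, Saa2 from -8.33 to -7.29, Saa3 from -4.17 to -0.78, Saa4 from -0.57 to -0.07 and Apcs from 1.89 to 2.49. In Saa1, Saa2 and Saa3 the extremes that were furthest from the reported value came from leaving out a vehicle library.

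**Figure D5:**
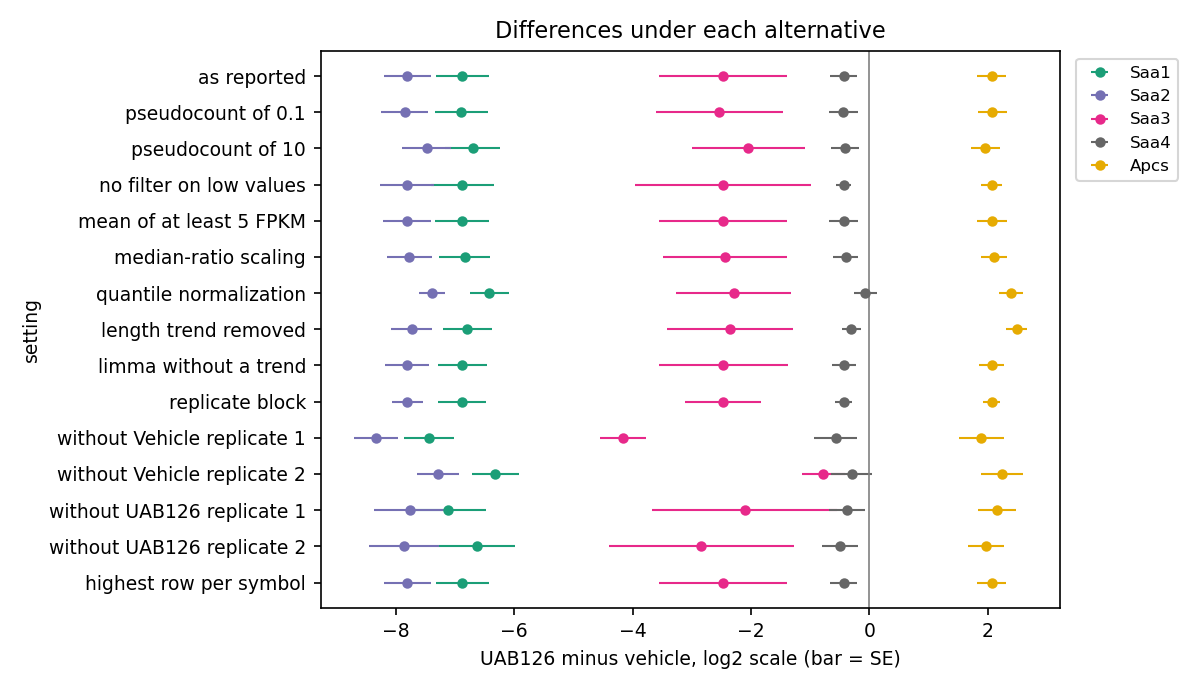
Log2 difference of each serum amyloid gene (UAB126 minus vehicle, horizontal axis) as reported and under each alternative (rows), with bars for limma's standard error. Saa3 moves from -4.17 without vehicle 1 to -0.78 without vehicle 2, and Saa4 is nearest to 0, at -0.07, with quantile normalization.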

How the data were processed

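Liver RNA of 4 libraries, 2 per group, was measured by sequencing of polyadenylated RNA. STAR 2.5.1b, Cuffdiff, Cufflinks 2.2.1 and Trim Galore 0.4.1 were used on build mm10, per the submitters' processing notes. The annotation and settings were not given in the sources used here. The authors deposited 1 table of FPKM values, already scaled for length and mapped fragments, so depth is unknown and no count test was run. Of its 27216 rows, 3634 without a symbol were left out, and rows sharing a symbol were summed. Rows naming several genes (595) were not used as list members.

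Log2(FPKM + 1) of 10786 symbols averaging 1 FPKM or more was fitted with limma 3.58.1 in R 4.3.3 (intensity trend, group as the only term, two-sided, Benjamini-Hochberg adjusted p under 0.05). The prior gave 3.35 of the 5.35 degrees of freedom. The fit was tested on simulated data. The members and all lists were chosen with earlier results of these data known. The rule for named genes took the members, their fixed neighbours, the 5 symbols nearest to each member and, per list, every gene past the threshold and the 4 with the smallest unadjusted p. Genes named beyond it (Il6, Il1a, Il1b, Stat3, Socs3, Cebpb, Cebpd, Fpr2, Tlr2, Hamp, Serpina3n and single cell markers) were chosen after their values were seen, as were the heart and skeletal muscle lists. The 6 acute phase genes in shared rows were named only as left out. Alternatives were the pseudocount, the filter, scaling, transcript length, the prior, a replicate block, summing of rows and leaving out each library. Positions and transcripts came from GENCODE M21 (GRCm38, the assembly of mm10), and promoters from RefSeq (GRCm38.p6), where all 5 members matched. Sequences were aligned with Biopython 1.88.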

Additional observations from a re-analysis of the deposited data

How the results depend on the processing

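The number of symbols past the threshold was 15 and moved with the processing (limma). It was 27 with a pseudocount of 0.1, 2 with a pseudocount of 10, 2 with no filter on low values, and 24 both with median-ratio scaling and with quantile normalization. The split was 5 higher and 10 lower as reported, 12 and 12 with quantile normalization, and 8 and 8 with the length trend removed. The 2 left with no filter were not among the 15. Leaving out 1 library gave 0 to 442. The 0, without UAB126 2, came with 737 symbols at an unadjusted p under 0.05. It was 442 without vehicle 1 and 56 without vehicle 2. The 14 without UAB126 1 shared 1 symbol with the 15. A lone library is there assumed to vary like the other group. The cause of these moves was not tested.

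With quantile normalization, Saa4 was at -0.0682 and Apcs at 2.39, and with the length trend removed Apcs was at 2.49. List medians moved with quantile normalization to 0.13 for signal proteins and factors, 0.0778 for SAA receptors and carriers, -0.35 for other acute phase genes and 0.21 for negative acute phase genes. The last 2 were at -0.66 and -0.23 with the length trend removed. The receptors and carriers were at -0.0365 with no filter, and the signal list at 0.0364 with a pseudocount of 10. Leaving out 1 library gave -0.27 to 0.80 for pentraxins and partners, -1.09 to -0.70 for other acute phase genes and 0.0307 to 0.0801 for the signal list. Of the 23 list genes named by the rule, 4 turned direction, all with quantile normalization: Apoe (0.0778), Apoh (0.0258), C4bp (0.11) and Ttr (0.0771).

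The replicate numbers of the titles are not stated to pair the libraries. Deviations of same-numbered libraries correlated at 0.178 across symbols. With the number as a block, 148 symbols passed (38 higher, 110 lower), among them Lcn2, Lrg1 and Steap4 of the other acute phase genes. Of 320 values of the 23 genes under alternatives, 13 newly passed: 8 of Lcn2, 2 of Orm3, 1 each of Lrg1 and Steap4 (both with the block) and 1 of Alb (without vehicle 1).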

Other observations

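The vehicle libraries differed from each other in more of the acute phase genes than Saa1, Saa2 and Saa3. Of the 18 other acute phase genes tested, 15 were higher in vehicle 2 than in vehicle 1, with a median ratio of 1.42 on the FPKM + 1 scale. Among all tested symbols, 53.4% were higher in vehicle 2, with a median ratio of 1.03. Hamp, which encodes the iron hormone hepcidin, was at 1783 FPKM in vehicle 1 and 5388 FPKM in vehicle 2, a ratio of 3.02. Here and for the next genes the ratio is of FPKM as deposited. It was 2.72 for Orm3 and 1.88 for Lcn2, against 2.17 for Saa1, while Serpina3n (1.02) was nearly level. Between UAB126 2 and UAB126 1 the median ratio of the 18 genes was 1.18, against 1.04 over all tested symbols. Of the 18 genes, 13 were higher in UAB126 2 than in UAB126 1, against 6060 of all 10786 tested symbols. With 1 library on each side, these are values without a test.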
